A study of Caenorhabditis elegans with 4 samples.

Results

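The 38 genes described here encode the machinery of synaptic vesicle release and recycling, the synthesis, loading and removal of transmitters, and the processing of neuropeptides in Caenorhabditis elegans. They were chosen by gene name as parts of these pathways, and all 38 were found among the 46881 genes of the count files. The study asked which genes were regulated in wild-type Bristol N2 hermaphrodites by feeding on MI-OMU01, a Bacillus subtilis (natto) strain. MI-OMU01-fed worms (2 libraries) were compared with worms fed Escherichia coli OP50, the usual laboratory food (2 libraries). In both groups worms were 3 days old when placed on the lawns and were kept there for 1 day, and about 200 worms per group were collected for poly(A) RNA sequencing. Both groups had the same strain, sex and age, and the labels name the bacteria as the difference. Each library was made from whole animals, so a smaller number of neurons and less RNA per neuron cannot be told apart. Whether the paired libraries of each food were raised as independent cultures is not stated. The p-values therefore reflect only how far these 4 libraries vary, and that variation may be technical.

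As background, neurons release small transmitters from synaptic vesicles that fuse with the membrane when SNARE proteins on vesicle and membrane zip together. Neuropeptides and insulins take another route. They are made as long precursors, cut and trimmed inside dense core vesicles, and released from these. In C. elegans the transmitters acetylcholine, GABA, glutamate, dopamine, serotonin, tyramine and octopamine each mark their own classes of neurons, while fusion proteins are used by nearly all neurons.

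The MI-OMU01 libraries held 17601286 and 24381952 counted reads, and the OP50 libraries held 16962082 and 17327035. The 38 genes took 0.362% (95% interval 0.359 to 0.364) and 0.388% (0.386 to 0.391) of the reads in the MI-OMU01 libraries. In the OP50 libraries they took 0.263% (0.261 to 0.265) and 0.302% (0.299 to 0.304). These are exact binomial intervals that cover counting error only. Every one of the genes had reads in each library, from 22 reads for unc-46 to 18865 reads for egl-3, and all 38 passed the filter on low counts. Replicate 1 of OP50 stood below replicate 2 for 33 of the 38 genes, and replicate 1 of MI-OMU01 stood below replicate 2 for 29. Values without OP50 replicate 1 are therefore given where they change a call.

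Feeding on MI-OMU01 went with more transcript of the neuropeptide-processing genes egl-3, egl-21 and ida-1 and of the release regulators aex-3 and tom-1, and with less of the decarboxylase gene bas-1. Levels are given as counts per 1e6 reads (CPM) after TMM scaling. In edgeR's quasi-likelihood test 5 of the 38 genes were higher and 1 was lower at an adjusted p under 0.05. Of all 14967 genes tested, 29.7% passed the threshold, with 14.6% of all tested genes higher and 15.2% lower (2178 and 2271 genes). With total counts in place of TMM these were 3206 and 1706 genes, and 8 of the 38 were higher. The share of the 38 genes that was called, 15.8%, was thus below that of all genes, and the share called higher, 13.2%, was close to the background. None of the 38 genes passed with at least a 2-fold change, against 12.8% of all genes. The median log2 fold change was 0.03 over the 38 genes and 0.03 over all genes tested. Both libraries of a group stood apart from both of the other for 17 of the 38 genes (44.7%), against 63.1% of all genes tested. They were 10 higher genes and 7 lower ones, against a background of 33.2% higher and 29.9% lower. At an unadjusted p under 0.05, unc-10 was higher in addition to the called genes, while 38.7% of all tested genes passed that level. The other 32 genes did not pass, which does not show that they were equal. For 36 of the 38 genes the 95% interval of the fold change lay inside a 2-fold change in either direction, and for 24 inside a 1.5-fold change. The genes whose interval reached further were unc-46 and unc-47, both at low levels.

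**Figure D1:**
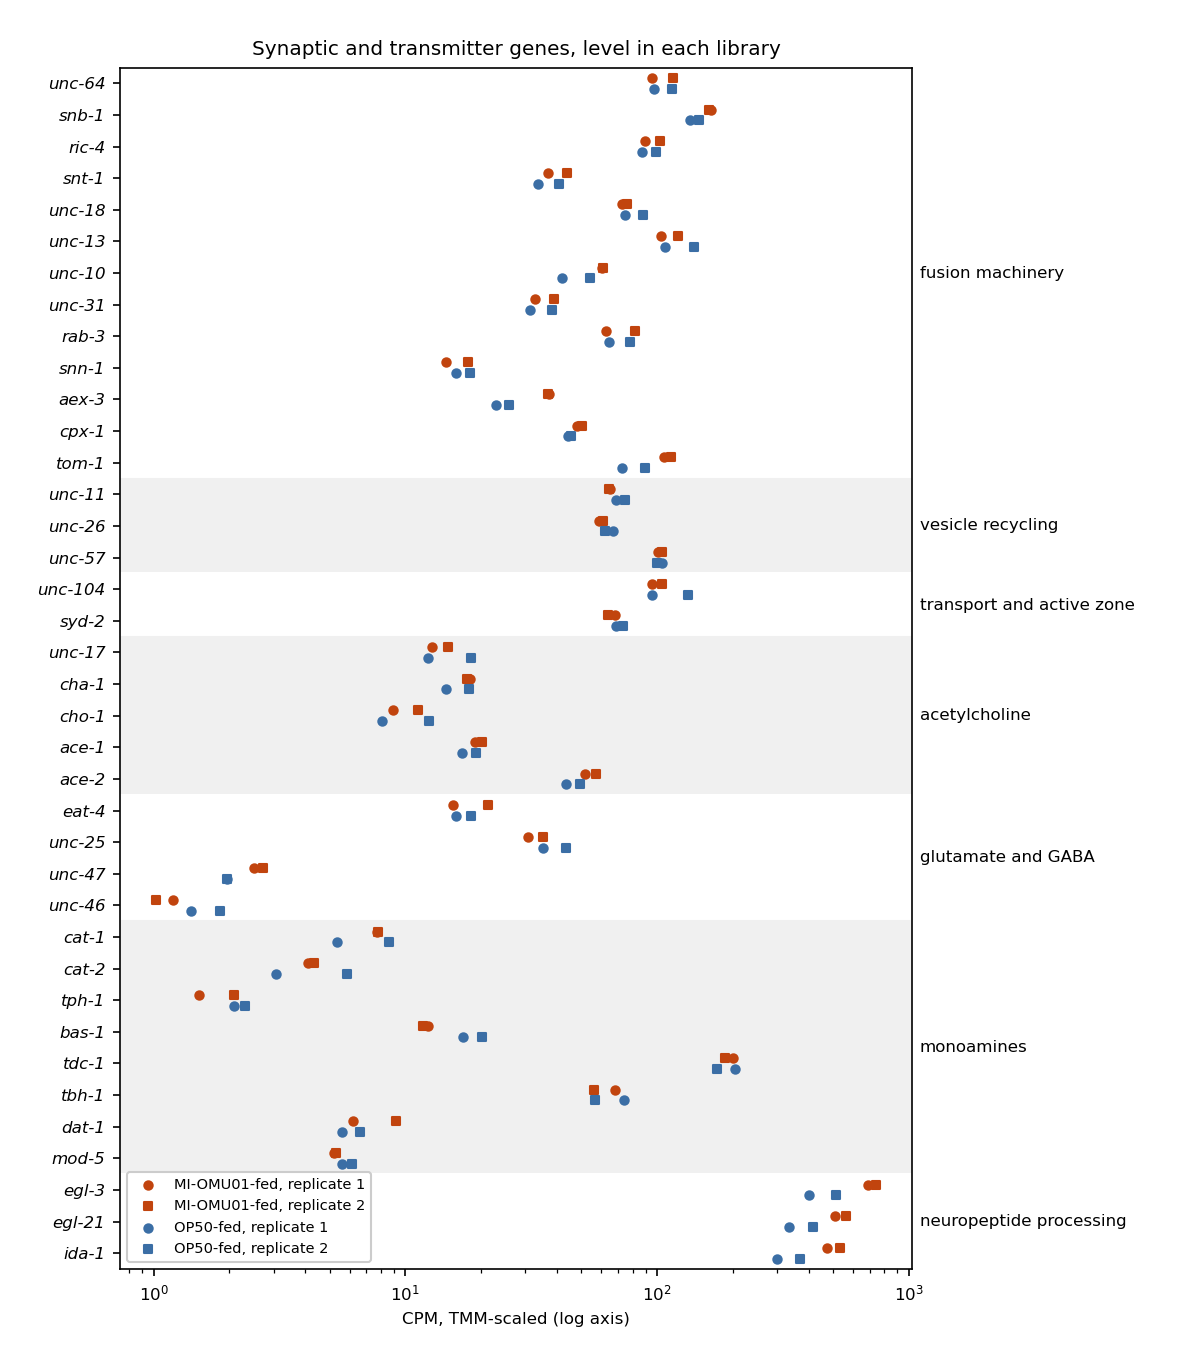
Level of each of the 38 genes in each of the 4 libraries, as TMM-scaled CPM on a log axis, with genes down the page by role; circles are replicate 1 and squares replicate 2 of each group. The points of both groups lie close together for most genes, while egl-3, egl-21 and ida-1 at the bottom have both MI-OMU01 points to the right of both OP50 points.

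**Figure D2:**
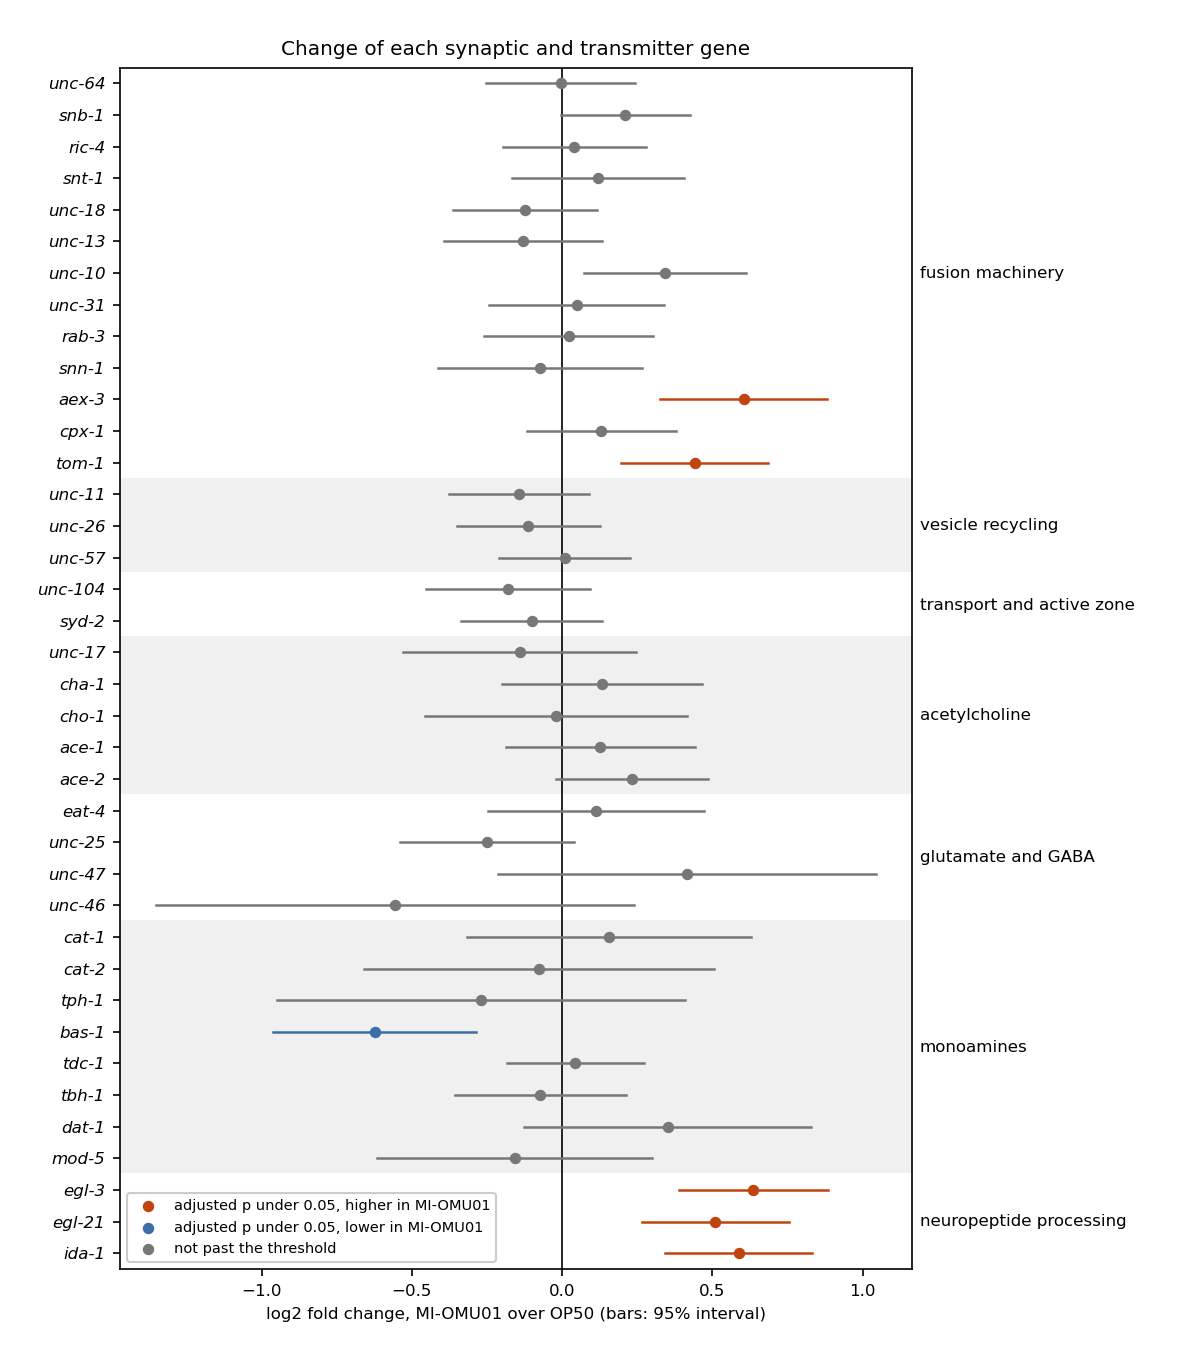
Fold change of each gene on the log2 scale, MI-OMU01 over OP50, from edgeR's quasi-likelihood fit, with bars for the 95% interval; genes run down the page by role. The 5 genes called higher lie between 0.44 and 0.64, and bas-1, the 1 gene called lower, lies at -0.62.

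All 3 neuropeptide-processing genes of the set rose and passed the threshold, beside 14.6% of all tested genes higher. These 3 were chosen with earlier results of these data known. Of 12 further tested genes of peptide processing and dense core vesicles, given below, 3 rose, 1 fell and 8 did not pass. The proprotein convertase gene egl-3, whose product cuts peptide precursors at basic residues, stood at 686 and 741 CPM in MI-OMU01-fed worms, against 403 and 515 CPM in OP50-fed worms. Its log2 fold change was 0.64 (SE 0.12), a 1.55-fold rise (edgeR adjusted p = 0.000360). It lies on chromosome V, 10169197 to 10173753, in the coordinates of the files (WBcel235 per the submitters' processing notes). The carboxypeptidase E gene egl-21 acts next and removes the basic residues that the cut leaves. It stood at 508 and 563 CPM in MI-OMU01-fed worms, against 335 and 417 CPM in OP50-fed worms, a 1.42-fold rise (log2 fold change 0.51, SE 0.12, edgeR adjusted p = 0.00229; chromosome IV, 10478450 to 10481844). Without MI-OMU01 replicate 2 its adjusted p was 0.0536, at a log2 fold change of 0.43. The third gene, ida-1, encodes a membrane protein of dense core vesicles related to the diabetes autoantigen IA-2. It stood at 476 and 531 CPM in MI-OMU01-fed worms, against 299 and 371 CPM in OP50-fed worms. That was a 1.50-fold rise (log2 fold change 0.59, SE 0.12, edgeR adjusted p = 0.000666; chromosome III, 5755496 to 5765815). For all of these genes both MI-OMU01 libraries lay above both OP50 libraries. The calls of egl-3 and ida-1 held under each of the 12 alternatives run.

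Summed over egl-3, egl-21 and ida-1 the level was 1669 and 1836 CPM in MI-OMU01-fed worms, against 1038 and 1303 CPM in OP50-fed worms, a ratio of means of 1.50. Over the other 35 genes the sum was 1780 and 1885 CPM in MI-OMU01-fed worms, against 1698 and 1881 CPM in OP50-fed worms, a ratio of 1.02. The rise in summed level of all 38 genes, 1.21-fold, thus came from the neuropeptide-processing genes in the main.

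The share of peptide processing relative to vesicle fusion can be read within each library, free of library scaling. Reads of the 3 processing genes divided by reads of the 13 fusion genes gave 1.80 and 1.80 in the MI-OMU01 libraries, against 1.25 and 1.33 in the OP50 libraries. The means were 1.80 ± 0.00502 in MI-OMU01-fed worms and 1.29 ± 0.0565 in OP50-fed worms (SD, n = 2 each), which differ by 1.39-fold. An exact two-sided permutation test gave p = 0.333, the smallest p that 2 libraries against 2 can give. This ratio was chosen after the values were seen, and it lay between 1.35 and 1.44 when each library was left out in turn.

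**Figure D3:**
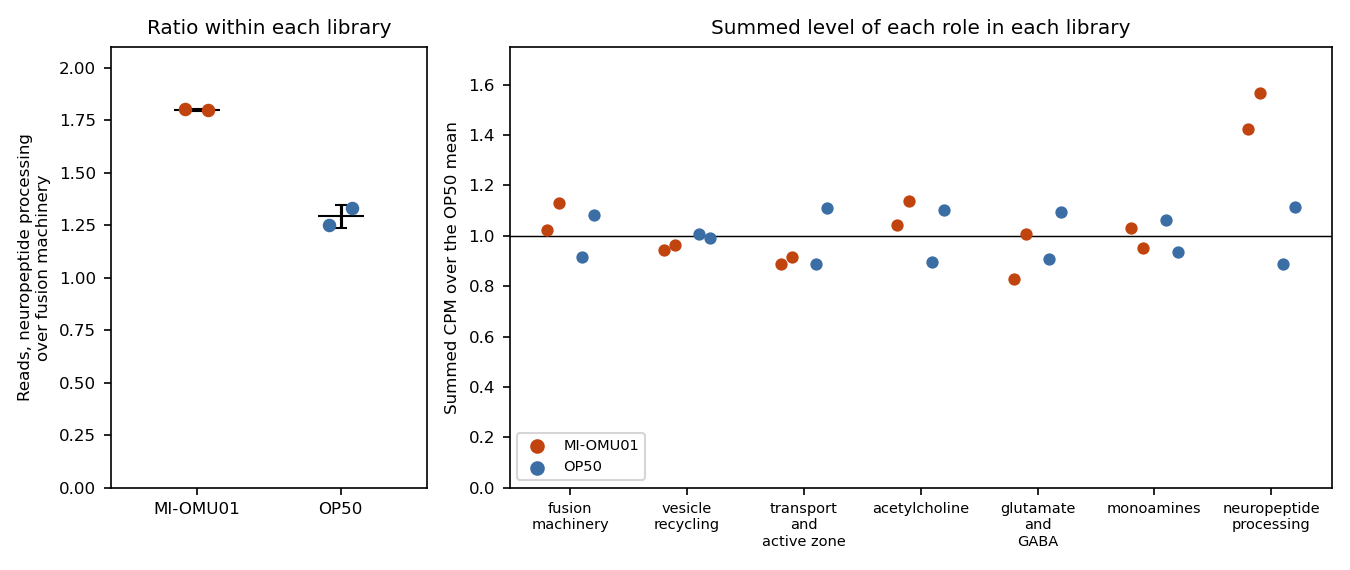
Left, reads of the neuropeptide-processing genes over reads of the fusion machinery genes in each library (points), with the mean and SD of each group; right, summed CPM of each role in each library divided by the mean of the OP50 libraries. The ratio is 1.80 in both MI-OMU01 libraries, and on the right only the neuropeptide-processing sums of MI-OMU01 stand clear of the OP50 points upwards.

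Other genes of the peptide route were read from the same fit. Of 12 tested genes of peptide processing and dense core vesicles outside the 38, 3 rose and 1 fell (median log2 fold change 0.15). The 7B2-type chaperone gene sbt-1, whose product assists the convertase EGL-3, rose 1.50-fold to 253 ± 20.2 CPM in MI-OMU01-fed worms, against 168.3 ± 25.1 CPM in OP50-fed worms (SD, n = 2; edgeR adjusted p = 0.000602). The peptide-amidating enzyme genes pghm-1 and pgal-1 rose 1.49-fold (edgeR adjusted p = 0.000376) and 1.34-fold (edgeR adjusted p = 0.00827). The last call was lost without OP50 replicate 1 (adjusted p = 0.104) and without MI-OMU01 replicate 2 (adjusted p = 0.133). The neprilysin-type peptidase gene nep-1, whose product belongs to a family that degrades peptides, fell 1.67-fold to 48.6 ± 0.199 CPM, against 81.1 ± 2.91 CPM in OP50-fed worms (edgeR adjusted p = 4.01e-05). The convertase genes kpc-1 and bli-4, also active outside neurons, had log2 fold changes of 0.01 and -0.14 and did not pass (edgeR adjusted p = 0.978 and 0.333). Another convertase gene of the list, aex-5, had a log2 fold change of 0.36 and did not pass either (edgeR adjusted p = 0.0776). Its groups did not overlap. Of the 12 genes, 7 had fold changes above 0 on the log2 scale and 5 below. Without OP50 replicate 2, 5 genes of this list were higher.

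The peptide precursors themselves were read as families. Of 30 tested FMRFamide-like genes (flp) 19 were higher and none lower, with 29 of 30 fold changes above 0 and a median log2 fold change of 0.53. Without OP50 replicate 1, 10 were higher, and without MI-OMU01 replicate 2, 9. Of 66 tested nlp genes 38 were higher and 3 lower (median 0.54), and 24 and 20 were higher without these libraries. Several nlp genes are made in the skin and intestine rather than in neurons.

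**Figure D4:**
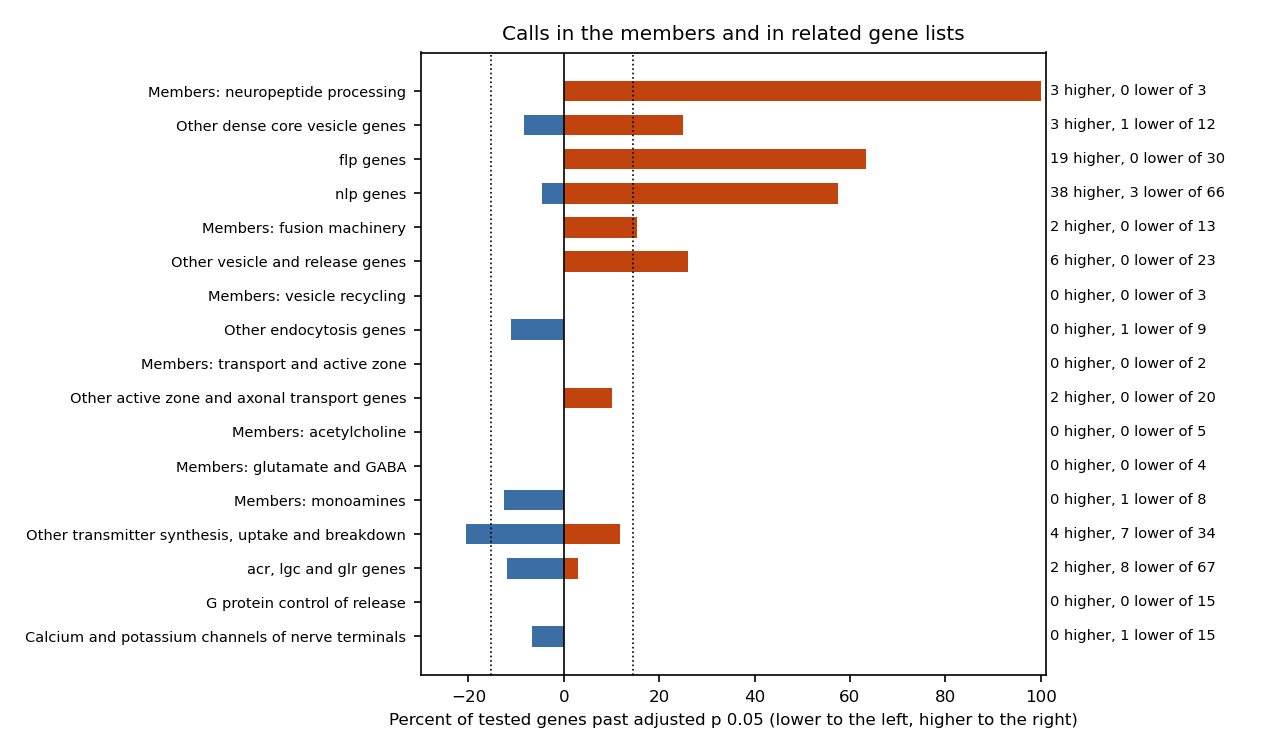
Percent of the tested genes of each list past an adjusted p of 0.05, higher in MI-OMU01-fed worms to the right (orange) and lower to the left (blue); dotted lines mark the share of all tested genes, 14.6% higher and 15.2% lower. The flp and nlp genes and the neuropeptide-processing genes extend far past the right line, and the vesicle recycling, transport, acetylcholine and G protein lists show few or no calls.

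The membrane fusion machinery held 13 of the 38 genes, of which 2 rose, none fell and 11 did not pass (median log2 fold change 0.05). The core SNARE genes were unc-64 (syntaxin), ric-4 (SNAP-25) and snb-1 (synaptobrevin). Syntaxin stood at 95.8 and 115 CPM in MI-OMU01-fed worms, against 97.2 and 115 CPM in OP50-fed worms (log2 fold change -0.01, 95% interval -0.25 to 0.24). The groups thus overlapped almost fully for unc-64. The SNAP-25 gene ric-4 had 89.3 and 102.3 CPM in MI-OMU01-fed worms, against 87.3 and 99.3 CPM in OP50-fed worms, with a 95% interval from -0.20 to 0.28. Synaptobrevin, the SNARE of the vesicle, had 164 and 161 CPM in MI-OMU01-fed worms, against 135 and 146 CPM in OP50-fed worms. Its groups did not overlap, yet the log2 fold change of 0.21 missed the threshold (95% interval -0.01 to 0.43, edgeR adjusted p = 0.139). With total counts as library sizes the adjusted p of snb-1 was 0.0152.

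None of the genes for preparing and triggering fusion in this paragraph passed the threshold with all libraries. The calcium sensor gene snt-1 (synaptotagmin) had 36.97 and 43.8 CPM in MI-OMU01-fed worms, against 33.6 and 40.9 CPM in OP50-fed worms. The syntaxin-binding gene unc-18 (Munc18) had 72.9 and 76.3 CPM in MI-OMU01-fed worms, against 74.8 and 87.6 CPM in OP50-fed worms. The priming factor gene unc-13 (Munc13) had 103.8 and 122 CPM in MI-OMU01-fed worms, against 107 and 140 CPM in OP50-fed worms. The groups of these genes overlapped, with log2 fold changes of 0.12, -0.12 and -0.13. Without OP50 replicate 1, unc-13 passed as lower (log2 fold change -0.35, edgeR adjusted p = 0.00908). The complexin gene cpx-1, whose product clamps the SNARE complex, had 47.97 and 50.3 CPM in MI-OMU01-fed worms, against 44.2 and 45.6 CPM in OP50-fed worms (log2 fold change 0.13, edgeR adjusted p = 0.459). The CAPS gene unc-31, which acts in dense core vesicle release, had 32.8 and 39.0 CPM in MI-OMU01-fed worms, against 31.4 and 38.2 CPM in OP50-fed worms. It did not move with the peptide-processing genes beyond its spread (log2 fold change 0.05, 95% interval -0.24 to 0.34). The vesicle GTPase gene rab-3 and the synapsin gene snn-1 had log2 fold changes of 0.02 and -0.07.

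The 2 genes of this group that rose were aex-3 and tom-1, 2 of 13 beside 14.6% of all tested genes. The gene aex-3 encodes the exchange factor that activates RAB-3, and rose 1.52-fold. It had 37.2 and 37.02 CPM in MI-OMU01-fed worms, against 23.005 and 25.8 CPM in OP50-fed worms (log2 fold change 0.60, SE 0.13, edgeR adjusted p = 0.00167; chromosome X, 751211 to 759732). That call held under each of the 12 alternatives. Tomosyn, encoded by tom-1, holds back vesicle priming by binding syntaxin. Its gene had 107 and 114 CPM in MI-OMU01-fed worms, against 72.5 and 89.8 CPM in OP50-fed worms, a 1.36-fold rise (log2 fold change 0.44, SE 0.12, edgeR adjusted p = 0.00701; chromosome I, 5546120 to 5561642). The rise of tom-1 was lost without OP50 replicate 1 (log2 fold change 0.26, adjusted p = 0.0865) and without MI-OMU01 replicate 2 (log2 fold change 0.39, adjusted p = 0.104). The active zone gene unc-10 (RIM), whose product binds RAB-3, lay just outside the threshold. It had 60.6 and 61.2 CPM in MI-OMU01-fed worms, against 42.02 and 54.1 CPM in OP50-fed worms (log2 fold change 0.34, SE 0.13, edgeR adjusted p = 0.0518). The groups of unc-10 did not overlap, and it passed under 6 of 12 alternatives, with adjusted p from 0.000481 to 0.501.

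Among 23 tested vesicle and release genes outside the 38, 6 rose and none fell (median log2 fold change 0.20). The largest rises were those of snb-2, a second synaptobrevin gene (1.94-fold, edgeR adjusted p = 0.00207), snt-6 of the synaptotagmin family (1.85-fold, edgeR adjusted p = 0.000609) and ric-19 (1.80-fold, edgeR adjusted p = 0.00105). The RIC-19 protein is known from dense core vesicle maturation. The gene cab-1, whose product binds AEX-3, was chosen after its values were seen. It rose 1.55-fold, to 652 ± 28.8 CPM in MI-OMU01-fed worms, against 421 ± 61.7 CPM in OP50-fed worms (SD, n = 2; edgeR adjusted p = 0.000258).

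Vesicle recycling and axonal transport genes did not pass the threshold. For the clathrin adaptor gene unc-11 (AP180) the levels were 64.9 and 64.6 CPM in MI-OMU01-fed worms, against 68.8 and 74.3 CPM in OP50-fed worms. For the synaptojanin gene unc-26 they were 58.6 and 60.8 CPM in MI-OMU01-fed worms, against 67.1 and 62.1 CPM in OP50-fed worms. Both genes stood slightly lower in MI-OMU01-fed worms without overlap, by -0.14 and -0.11 on the log2 scale (edgeR adjusted p = 0.379 and 0.509). The endophilin gene unc-57 had 101.1 and 105 CPM in MI-OMU01-fed worms, against 104.4 and 100.4 CPM in OP50-fed worms. Its log2 fold change of 0.01 had a 95% interval from -0.21 to 0.23, among the narrowest of the set. Kinesin-3, the motor that carries vesicle precursors along axons, is encoded by unc-104 and had 95.8 and 105 CPM in MI-OMU01-fed worms, against 95.3 and 132 CPM in OP50-fed worms. Its adjusted p was 0.338, and 0.000699 without OP50 replicate 1, when the log2 fold change was -0.44. The liprin-alpha gene syd-2, which organizes active zones, had a log2 fold change of -0.10 (edgeR adjusted p = 0.551). Of 9 further endocytosis genes 1 fell, the adaptor subunit gene apa-2 (1.23-fold, edgeR adjusted p = 0.0385), and 0 were lower without either MI-OMU01 library. Of 20 further active zone and transport genes, the ubiquitin ligase gene rpm-1 rose 1.43-fold and the kinase gene unc-51 1.32-fold (edgeR adjusted p = 0.00649 and 0.00866). Without OP50 replicate 1 or MI-OMU01 replicate 2 this list had 0 higher genes, and without OP50 replicate 2 it had 5. Lower genes numbered 4 without OP50 replicate 1 and 1 without OP50 replicate 2.

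None of the 5 acetylcholine genes passed. The vesicular transporter gene unc-17 and the choline acetyltransferase gene cha-1 share a locus on chromosome IV (3613934 to 3624697) and 66 exon bases on the same strand, so some of their reads could be split. The level of unc-17 was 12.8 and 14.8 CPM in MI-OMU01-fed worms, against 12.3 and 18.3 CPM in OP50-fed worms. That of cha-1 was 17.996 and 17.5 CPM in MI-OMU01-fed worms, against 14.5 and 17.9 CPM in OP50-fed worms. Both pairs of groups overlapped, and the log2 fold changes of -0.14 and 0.13 had opposite signs. The choline transporter gene cho-1 had a log2 fold change of -0.02. Acetylcholinesterases, which end the signal, were measured as ace-1 (log2 fold change 0.13) and ace-2. For ace-2 the levels were 51.8 and 57.2 CPM in MI-OMU01-fed worms, against 43.6 and 49.3 CPM in OP50-fed worms (log2 fold change 0.23, edgeR adjusted p = 0.168, and 0.0263 with total counts as library sizes). Of 10 tested genes for assembly of acetylcholine receptors 1 rose and 2 fell. The endoplasmic reticulum gene nra-4 fell 1.79-fold (edgeR adjusted p = 3.52e-06) and molo-1, which encodes an auxiliary subunit of muscle receptors, rose 1.84-fold (edgeR adjusted p = 0.00354). Without MI-OMU01 replicate 2, 0 of these were higher and 1 was lower, and without OP50 replicate 2, 2 were higher.

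Glutamate and GABA genes did not pass either. The vesicular glutamate transporter gene eat-4 had 15.4 and 21.3 CPM in MI-OMU01-fed worms, against 15.9 and 18.3 CPM in OP50-fed worms (log2 fold change 0.11). It shares exon bases with ZK512.2 and ZK512.7 on the other strand. For the glutamate decarboxylase gene unc-25, which makes GABA, the levels were 30.7 and 35.3 CPM in MI-OMU01-fed worms, against 35.1 and 43.5 CPM in OP50-fed worms. Its groups overlapped (log2 fold change -0.25, edgeR adjusted p = 0.195), and without OP50 replicate 1 it passed as lower (log2 fold change -0.44, adjusted p = 0.0112). The vesicular GABA transporter gene unc-47 had 46 and 69 reads in the MI-OMU01 libraries, against 32 and 32 reads in the OP50 libraries. The gene unc-46, whose product sorts UNC-47 to vesicles, had 22 and 26 reads in the MI-OMU01 libraries, against 23 and 30 reads in the OP50 libraries. These counts leave wide 95% intervals of the log2 fold change, from -0.21 to 1.04 for unc-47 and from -1.35 to 0.24 for unc-46. The interval of unc-47 reaches past a 2-fold rise and that of unc-46 past a 2-fold fall, so changes of those sizes are within the error of these counts.

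Among 8 monoamine genes bas-1 fell and the other 7 did not pass, beside 15.2% of all tested genes lower. The enzyme encoded by bas-1, an aromatic amino acid decarboxylase, carries out the last step of both dopamine and serotonin synthesis. It had 12.3 and 11.8 CPM in MI-OMU01-fed worms, against 16.99 and 20.1 CPM in OP50-fed worms, a 1.54-fold fall (log2 fold change -0.62, SE 0.16, edgeR adjusted p = 0.00589; chromosome III, 5612274 to 5614700). Both MI-OMU01 libraries lay below both OP50 libraries. The call of bas-1 held under 11 of 12 alternatives and was lost without MI-OMU01 replicate 2 (adjusted p = 0.0647). The rate-limiting enzymes upstream of it were at low levels. The tyrosine hydroxylase gene cat-2 had 4.12 and 4.32 CPM in MI-OMU01-fed worms, against 3.07 and 5.85 CPM in OP50-fed worms, and the groups overlapped. The tryptophan hydroxylase gene tph-1 had 28 and 53 reads in the MI-OMU01 libraries, against 34 and 38 reads in the OP50 libraries (log2 fold change -0.27, 95% interval -0.95 to 0.41). The vesicular monoamine transporter gene cat-1, the dopamine reuptake gene dat-1 and the serotonin reuptake gene mod-5 had log2 fold changes of 0.16, 0.35 and -0.16 (edgeR adjusted p = 0.660, 0.279 and 0.644).

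Tyramine and octopamine synthesis genes stood apart from the other monoamine genes in level and in their order over replicates. The tyrosine decarboxylase gene tdc-1, which makes tyramine, had 201 and 186 CPM in MI-OMU01-fed worms, against 203 and 173 CPM in OP50-fed worms. The hydroxylase gene tbh-1, which turns tyramine into octopamine, had 68.1 and 56.0 CPM in MI-OMU01-fed worms, against 73.8 and 56.6 CPM in OP50-fed worms. The groups overlapped for both genes (log2 fold changes 0.04 and -0.07). They were the only 2 of the 38 genes with replicate 1 above replicate 2 in both groups. The summed level of 24 germline and oocyte markers had the same order, with 9685 and 8657 CPM in MI-OMU01-fed worms, against 10128 and 8129 CPM in OP50-fed worms. Both enzymes are known from gonadal sheath cells as well as from neurons. No markers of sheath cells were read, and the part of gonad tissue in the levels of tdc-1 and tbh-1 was not tested.

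Of 34 tested genes for other steps of transmitter synthesis, uptake and breakdown 4 rose and 7 fell. Among them comt-1 and comt-2, which encode catechol methyltransferase-like enzymes, went opposite ways. For comt-1 the level fell 2.702-fold (edgeR adjusted p = 0.00165), while comt-2 had 2.39 and 2.20 CPM in MI-OMU01-fed worms, against 0.491 and 0.305 CPM in OP50-fed worms (edgeR adjusted p = 0.000193). Tyrosinase-like genes went both ways as well, with tyr-2 2.37-fold and tyr-4 1.601-fold lower (edgeR adjusted p = 1.69e-06 and 0.000170) and tyr-3 higher on 28 reads in the MI-OMU01 libraries, against 3 in the OP50 libraries (edgeR adjusted p = 0.0109). Glutamate transporter gene glt-5 rose 2.77-fold (edgeR adjusted p = 0.00419). Without MI-OMU01 replicate 2, 1 gene of this list was higher.

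**Figure D5:**
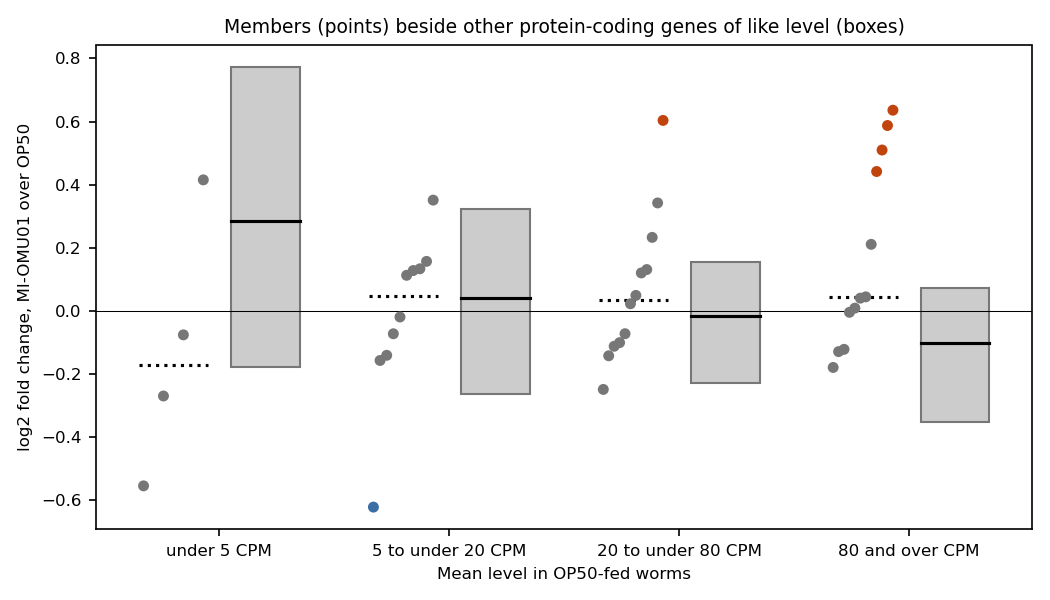
Log2 fold changes of the 38 genes (points; orange higher, blue lower, grey not past the threshold; dotted line, median) beside all other tested protein-coding genes in the same band of mean OP50 level (box, quartiles; solid line, median). Above 80 CPM the 4 called genes are egl-3, egl-21, ida-1 and tom-1. They lie above the upper quartile of 0.07 of the other genes, which their selection as called higher already implies. The OP50 level is also the denominator of the fold change.

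The genes were set beside other protein-coding genes of equal OP50 level, as a description with no test. At 80 CPM and over, 4 of 12 of the genes were higher and none lower, with a median log2 fold change of 0.04. These 4 were tom-1 and the neuropeptide-processing genes egl-3, egl-21 and ida-1, chosen with earlier results of these data known. The count thus repeats the calls given above and is not a separate result on genes of this level. Among 2687 other genes at that level, 8.52% were higher and 29.3% lower, with a median of -0.10. From 20 to under 80 CPM, 1 of 12 was higher (median 0.04), while of 3888 other genes 11.6% were higher and 17.2% lower (median -0.02). From 5 to under 20 CPM, 1 of 10 was lower (median 0.05), and of 3254 other genes 16.1% were higher and 14.97% lower (median 0.04). Under 5 CPM were unc-46, unc-47, cat-2 and tph-1, of which none was called, with a median of -0.17 against 0.28 in 4539 other genes. The OP50 level is also the denominator of the fold change, and a gene low in OP50-fed worms can pass the filter through its MI-OMU01 reads alone, so a higher median in the lowest band of other genes is partly built in. Bands by the mean of both groups, added after seeing the data, gave 4 of 11 higher at 80 CPM and over (median 0.04), the same 4 genes. Of 2633 other genes in that band 11.2% were higher and 25.6% lower (median -0.07). Spearman's rho between fold change and OP50 level was 0.23 across the 38 genes and -0.31 across all 14406 protein-coding genes, and with the mean level of both groups 0.28 and -0.21. These values are across genes of the same libraries, which are not independent replicates.

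Levels per gene length differed widely between roles. On the scale of transcripts per 1e6 (TPM: reads per base of gene length, scaled to 1e6 in each library, from the counts and lengths in the files) egl-21 stood highest in OP50-fed worms at 284 ± 39.0 (SD, n = 2). Next came egl-3 at 229 ± 35.7 and snb-1 at 222 ± 8.80, which overlapped in their spread, then ida-1 at 162 ± 21.9. The SNARE genes unc-64 and ric-4 and the enzyme gene tdc-1 followed at 107 ± 10.9, 95.9 ± 7.11 and 95.3 ± 12.6 TPM, not separable beyond their spread. Other transmitter genes spread from 38.3 TPM for tbh-1, 28.3 for unc-25 and 26.8 for ace-2 downwards. Among them were unc-17 at 10.1 ± 2.65, eat-4 at 9.96 ± 0.816 and cha-1 at 9.96 ± 1.33 TPM. The lowest were unc-46, tph-1 and unc-47 at 2.06, 1.51 and 1.50 TPM. In MI-OMU01-fed worms the 7 highest genes kept the same order of mean TPM.

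Markers of neurons and of other tissues were read for comparison. Of 16 tested pan-neuronal markers outside the 38, 2 rose and 3 fell (median log2 fold change 0.07). Their summed levels were 1981 and 1987 CPM in MI-OMU01-fed worms, against 2271 and 2200 CPM in OP50-fed worms, a ratio of 0.89. That drop lay in the tubulin genes tba-1 and tbb-1, the highest of the list. The marker unc-119 averaged 23.7 ± 0.975 CPM in MI-OMU01-fed worms, against 23.7 ± 0.944 CPM in OP50-fed worms (SD, n = 2 each), and rgef-1 had a log2 fold change of 0.15 (edgeR adjusted p = 0.626). Without either MI-OMU01 library 1 of these markers was lower, and without OP50 replicate 1 or MI-OMU01 replicate 2, 1 was higher. The risen ones were ric-19 (1.80-fold) and rpm-1 (1.43-fold). The fallen ones were the tubulin genes tba-1 and tbb-1 and the nidogen gene nid-1, which are also used outside neurons. Mean levels of tba-1 and tbb-1 were 570 and 403 CPM in MI-OMU01-fed worms, against 725 and 522 CPM in OP50-fed worms. Together these tubulin genes fell by more than the whole sum, so the ratio of 0.89 shows no fall of the other markers. Muscle markers had 13 lower and 1 higher of 23, with summed levels of 13330 and 15352 CPM in MI-OMU01-fed worms, against 16918 and 20154 CPM in OP50-fed worms. Glia markers had 4 lower of 13 tested, with summed levels of 415 and 445 CPM in MI-OMU01-fed worms, against 484 and 535 CPM in OP50-fed worms. Intestine markers summed to 11075 and 11502 CPM in MI-OMU01-fed worms, against 6511 and 7038 CPM in OP50-fed worms, with 5 higher and 5 lower of 18 and a median log2 fold change of -0.20. The protease gene asp-1 carried that rise: without it the other 17 summed to 2756 and 2949 CPM in MI-OMU01-fed worms, against 3294 and 3417 CPM in OP50-fed worms. Of 18 tested hypodermis and seam markers 6 fell and none rose. Embryo markers (2 higher, 1 lower of 15) and germline and oocyte markers (1 higher, 1 lower of 24) had few calls, and 2 of 9 tested sperm markers rose. The intestine list had 2 higher genes without OP50 replicate 1 or MI-OMU01 replicate 1, 3 without MI-OMU01 replicate 2, and 2 lower ones without MI-OMU01 replicate 1. Muscle markers had 3 higher without OP50 replicate 2, and 0 without OP50 replicate 1 or MI-OMU01 replicate 2. Hypodermis markers had 4 higher without OP50 replicate 2. Embryo markers had 0 to 4 higher and 0 to 1 lower, and sperm markers 0 to 1 higher, over the fits without 1 library. The germline list had 6 higher genes without OP50 replicate 1 and 5 lower ones without OP50 replicate 2, and 0 of either without an MI-OMU01 library. The part that these tissues play in the changes of egl-3, egl-21, ida-1, aex-3, tom-1 and bas-1 was not tested.

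Neuron identity genes give a further view of the nervous system. Of 33 tested transcription factor genes of neuron identity 6 rose and 1 fell (median log2 fold change 0.17), with lim-6 2.01-fold higher (edgeR adjusted p = 0.00216) and unc-55 4.73-fold lower (edgeR adjusted p = 0.000612). The fall of unc-55 rests on low counts, 8 and 9 reads in the MI-OMU01 libraries, against 30 and 31 reads in the OP50 libraries. Without OP50 replicate 1 or MI-OMU01 replicate 2, 1 was higher, and without OP50 replicate 1, 2 were lower. Of 31 touch receptor and ciliated neuron genes 2 rose and 3 fell. The touch receptor tubulin gene mec-7 fell 1.61-fold (edgeR adjusted p = 0.000375), and odr-10, which encodes an odorant receptor for diacetyl, rose 2.71-fold to 4.80 ± 0.431 CPM in MI-OMU01-fed worms, against 1.77 ± 0.769 CPM in OP50-fed worms (edgeR adjusted p = 0.00111). Leaving out any library but OP50 replicate 2 left 1 higher gene in this list, and 5 were lower without OP50 replicate 1. Ligand-gated channel and receptor genes (acr, lgc and glr) had 2 higher and 8 lower of 67 tested. Their higher genes numbered 8 without OP50 replicate 2 1 without OP50 replicate 1 and 0 without either MI-OMU01 library, and 5 were lower without MI-OMU01 replicate 1. G protein genes that control release had 0 calls among 15 in the main edgeR fit, DESeq2 and limma. In the main fit 1 passed an unadjusted p of 0.05, against 38.7% of all tested genes. With total counts as library sizes 2 of these genes were higher, and with the replicate block 1 was higher and 1 lower. Leaving out 1 library gave 1 lower (without OP50 replicate 1) or 1 higher (without OP50 replicate 2). The calcium and potassium channel genes had 1 lower of 15, twk-18 (1.31-fold, edgeR adjusted p = 0.0347). That list had 3 lower without OP50 replicate 1, 0 lower without OP50 replicate 2 or MI-OMU01 replicate 1, and 1 higher without OP50 replicate 2. Of 17 genes of synaptic adhesion and scaffolds magi-1 and dlg-1 rose 1.24-fold and 1.22-fold (edgeR adjusted p = 0.0297 and 0.0484). None of these last rises held without OP50 replicate 1 or without either MI-OMU01 library, when the list had 0 higher genes, while 6 were higher without OP50 replicate 2 and 4 were lower without OP50 replicate 1.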

How the data were processed

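Poly(A) RNA of 2 MI-OMU01-fed and 2 OP50-fed samples was sequenced. Per the labels' protocols, worms were soaked in RNAlater before RNA isolation, and the library kit was a stranded one. The deposited files hold raw counts of reads per gene, 1 file per library, and a gene length column (other). The authors used featureCounts 1.6.4, STAR 2.7.2b, cutadapt 2.7, Trimmomatic 0.39 and Trim Galore 0.6.5 (builds ce11 and WBcel235), as listed without order in the submitters' processing notes. Not given in the sources used here are their settings, among them strand and the treatment of reads with several matches, so reads of overlapping or antisense genes may be mixed.

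Groups came from the sample titles. Counts were analysed with edgeR 4.0.16 in R 4.3.3: filterByExpr (minimum count 10, minimum total 15), TMM scaling (factors 1.05, 1.04, 0.962 and 0.948 for MI-OMU01 and OP50), robust quasi-likelihood fit with group as the only term, Benjamini-Hochberg adjustment over 14967 genes, threshold 0.05. SE is the log2 fold change over the square root of F. Chi-square per gene within groups (7.44 in MI-OMU01, 8.44 in OP50) was above sampling noise, so libraries were kept separate. Gene types came from Ensembl release 115, which matched 46794 genes and all 38 genes described. The procedure was tested on simulated counts. The genes and lists were chosen with earlier results of these data known. Named were all 38 genes and up to 3 risen and 3 fallen genes of each further list. Named outside that rule were cab-1 and, though not past the threshold, kpc-1, bli-4, aex-5, unc-119 and rgef-1. Alternatives used DESeq2 1.42.0, limma 3.58.1, other scaling and filters, protein-coding genes only, each library left out and the replicate number as a block. Values of the further lists, of cab-1, sbt-1, pghm-1 and pgal-1 and of the read ratio under these alternatives were added after seeing the data.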

Additional observations from a re-analysis of the deposited data

How the results depend on the processing

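Of the values of the 38 genes under 12 alternatives, 435 of 452 kept their side of the threshold, 13 passed newly and 4 were lost; no called gene changed direction. Over the fits that leave out 1 library, 3 to 6 of the 38 genes were higher and 0 to 4 lower, and their median log2 fold change ran from -0.093 to 0.17. Over all genes these fits gave 1262 to 2297 higher and 1505 to 2563 lower. The 4 lower genes without OP50 replicate 1 were bas-1, unc-13, unc-104 and unc-25. With total counts as library sizes 8 of the 38 genes were higher, and over all genes 3206 were higher and 1706 lower, against 2178 and 2271 with TMM; the median log2 fold change of all genes moved from 0.03 to 0.16 and that of the 38 likewise to 0.16. DESeq2 called 1355 genes higher. With bands set by TPM, the genes at 80 and over had a median of 0.21. Fitted with the replicate block, 8 of the 38 genes were higher (snb-1, unc-10 and ace-2 in addition). Calls over all genes rose as well in that fit, to 2890 higher and 2917 lower. Labels give no pairing, and same-numbered libraries deviated together at a correlation of 0.211 over 2 pairs, too few to settle whether the numbers pair the samples, so the fit without the block was kept. Low counts limit unc-46, unc-47, tph-1 and cat-2, which a filter of 5 CPM removed.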
